A study of Mus musculus with 768 samples.

Results

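The endoplasmic reticulum (ER) genes described here are 34 genes for protein entry, folding, quality control and stress signalling in the ER, chosen by name and found in both count tables among 23997 gene names. All 34 had at least 1 read in the cells kept. Secreted and membrane proteins enter the ER through the Sec61 channel, lose their signal peptide, are folded by chaperones and disulfide isomerases, and are degraded from the ER when folding fails. When unfolded proteins build up, the sensors Atf6, Ern1 and Eif2ak3 raise the supply of this machinery through the transcription factors Atf6, Xbp1 and Atf4, a program called the unfolded protein response. In the mammary gland the luminal epithelium makes milk proteins, chiefly caseins, through this route, and in leukocytes it carries receptors, cytokines and, in plasma cells, antibodies.

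Single cells of inguinal mammary glands of C57BL/6 mice were profiled by Smart-Seq2, which reads full-length transcripts of 1 sorted cell per well. The genotypes were WAP-CRE; R26-N1ICD-EGFP, on 1 plate of 384 wells, and WAP-CRE; R26-tdTomato, the control, on another 384. N1ICD is the active intracellular piece of the receptor Notch1. In both genotypes WAP-CRE, a recombinase driven by the promoter of Wap, a milk gene, switched on the R26 allele, so GFP or tdTomato, by which cells were sorted, is meant to mark cells in which Wap had been active. Leukocytes were nevertheless among the sorted cells of both plates. The labels give a lactation of 3 to 4 months, name no animals and do not say how many were pooled. Each genotype is therefore 1 sample, so an effect of genotype and one of the plate or of the reporter used for sorting cannot be told apart. No p-value is given, cells are not replicates, and intervals cover counting error only.

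Cells with at least 50000 reads and 1000 genes numbered 283 of 384 in the N1ICD-EGFP plate (73.7%, Clopper-Pearson 95% interval 69.0 to 78.0%) and 334 of 384 in the control plate (87.0%, 83.2 to 90.2%). The median depth was 348469 reads (51736 to 615615) in N1ICD-EGFP cells and 241888 reads (50048 to 608476) in control cells. Reads of eGFP numbered 3095 in N1ICD-EGFP and 64 in control cells, and at least 5 reads were found in 81 N1ICD-EGFP cells and in 0 control cells. Notch1 was at 225.0 CPM (counts scaled to a common total per group) in the N1ICD-EGFP plate and at 197.6 CPM in the control plate. Where these reads fall within Notch1 was not analysed here, so they do not separate N1ICD from the native gene.

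A cell was called Krt8-positive, with luminal keratin 8 at 5 or more reads and fewer than 2 of the leukocyte genes Ptprc, Laptm5, Coro1a and Cd53 at that level, and a leukocyte with at least 2 of those 4 and without Krt8. The N1ICD-EGFP plate held 205 Krt8-positive cells and 50 leukocytes, and the control plate held 298 and 19. Mixed wells, with Krt8 and at least 2 leukocyte genes, numbered 3 in N1ICD-EGFP (median 5777 genes) and 5 in control (median 3311 genes) and were left out, as were 25 N1ICD-EGFP and 12 control cells with neither. The 7 luminal markers summed to 12159 CPM in Krt8-positive cells and 63.7 CPM in leukocytes of the N1ICD-EGFP plate, and to 13183 and 140.0 CPM in the control plate. Basal epithelial markers summed to 272 CPM in N1ICD-EGFP and 435 CPM in control Krt8-positive cells. Of these cells, 6.83% in N1ICD-EGFP and 15.4% in control had Acta2 at 5 or more reads, and 8.29% and 3.69% had Krt14. Leukocyte markers, of which Cytip was at 5 or more reads in 53.2% of N1ICD-EGFP and 45.0% of control Krt8-positive cells, summed to 487 CPM in Krt8-positive cells and 10326 CPM in leukocytes of the N1ICD-EGFP plate, and to 319 and 11021 CPM in the control plate. Krt8 is among the luminal markers, and the 4 leukocyte genes of the rule are among the leukocyte markers. The rule thus fixed part of both differences in advance. N1ICD-EGFP leukocytes comprised 21 B cells, 8 T cells, 15 macrophages and 6 without a subtype. Control leukocytes comprised 3 B cells, 6 T cells, 8 macrophages and 2 without a subtype, and 0 plasma cells were found in either plate.

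Krt8-positive cells differed between the plates in hormone-sensing cells, casein reads and genes per cell, so a comparison of the plates does not set like cells against like. Hormone-sensing luminal cells, called by at least 2 of Pgr, Esr1, Foxa1, Cited1 and Wnt4, were 9 of 205 in N1ICD-EGFP and 68 of 298 in control. Casein reads (Csn1s1, Csn1s2a, Csn1s2b, Csn2, Csn3) had a median of 2186 CPM in N1ICD-EGFP and 17933 CPM in control Krt8-positive cells, against summed levels of 30.6 and 135.2 CPM in the leukocytes of those plates, which serve as background. After each cell was thinned to 50000 reads, the median number of genes per Krt8-positive cell was 2166 in N1ICD-EGFP and 3136 in control.

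Summed over a group, the ER genes made up 7702 CPM (exact Poisson 95% interval 7681 to 7722) in N1ICD-EGFP Krt8-positive cells and 9693 CPM (9671 to 9716) in control Krt8-positive cells. Leukocytes had 9481 CPM in the N1ICD-EGFP plate and 9149 CPM in the control plate. Per kilobase of exon, which allows genes to be ranked, the highest levels in control Krt8-positive cells were those of the chaperone Hspa5 (BiP) at 351 CPM per kb, the disulfide isomerase Pdia3 at 338, the transcription factor Xbp1 at 333, the chaperone Hsp90b1 at 279 and the translocon-associated subunit Ssr4 at 275. The lowest were the sensor Ern1 at 0.78, the channel subunit Sec61g at 1.48 and the sensor Eif2ak3 at 5.8 CPM per kb. Of the 34 genes, 33 reached 5 CPM in at least 1 of these groups. Sec61g stayed under 5 CPM in each of the 4 groups, at 2.34 CPM per kb or less, while its channel partners Sec61a1 and Sec61b reached 86 and 79.6 CPM per kb in control Krt8-positive cells.

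**Figure D1:**
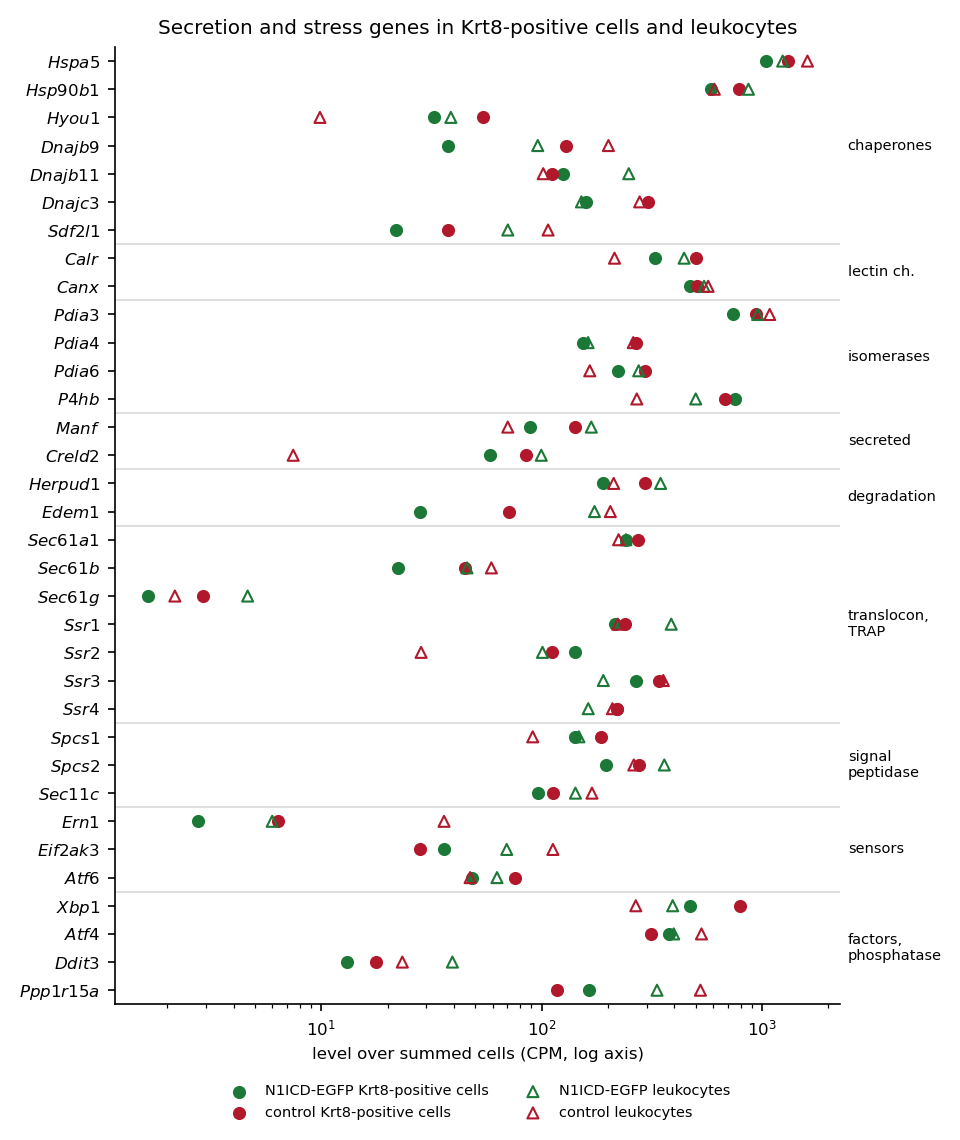
Level of each of the 34 ER genes, in CPM on a log axis, by role. Filled circles are Krt8-positive cells and open triangles leukocytes, with N1ICD-EGFP in green and control in red; each point sums the reads of all cells of a group. Hspa5 has 1047 CPM in N1ICD-EGFP and 1319 CPM in control Krt8-positive cells, and Ern1 has 2.75 and 6.37 CPM.

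Many ER chaperone genes are known to be switched on through the ER stress response element (ERSE), read by Atf6 together with the factor NF-Y, and the sites are shown because their letters are what several of these genes share beyond their function. RefSeq promoters (GRCm38.p6, 250 bases before to 50 after the start) were found for 28 of the 34 genes. Both strands were searched for ERSE (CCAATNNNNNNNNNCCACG), ERSE-II (ATTGG and CCACG with 1 free base between), the unfolded protein response element UPRE (TGACGTGG) and the Atf4 element CARE (TGATGNAA). ERSE occurred in 7 of 28 promoters (25.0%), against 39 of 32851 promoters in the table (0.119%). The sites follow in the direction of the motif, with its fixed letters in capitals.
Hspa5: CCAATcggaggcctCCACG
Hsp90b1, plus strand: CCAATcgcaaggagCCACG
Hsp90b1, minus strand: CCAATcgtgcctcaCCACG
Pdia6: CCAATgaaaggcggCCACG
Calr: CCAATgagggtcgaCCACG
Canx: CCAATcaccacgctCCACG
Creld2: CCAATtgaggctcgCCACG
Dnajc3: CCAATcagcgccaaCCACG
Herpud1, ERSE-II: ATTGGgCCACG
Dnajb11, ERSE-II: ATTGGcCCACG

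ERSE-II was present in 2 of 28 promoters (7.14%, against 0.0365% of all). CARE stood only in Herpud1 among the 28 (3.57%, against 3.97% of all), and UPRE in 0 of them (0.676% of all). A match describes letters in this window, and a missing match says only that these letters are not in it. ERSE sites lay between 212 and 47 bases before the start. Whole windows are given for the most abundant of these chaperone genes, for the gene with a site on each strand, for the isomerase that differed most between epithelial cells, and for the degradation gene with both ERSE-II and CARE, with the motif letters in capitals. Their places are chr2:34771840-34772139 (plus strand) for Hspa5, chr10:86705395-86705694 (minus strand) for Hsp90b1, chr12:17266339-17266638 (plus strand) for Pdia6 and chr8:94386179-94386478 (plus strand) for Herpud1.
Hspa5: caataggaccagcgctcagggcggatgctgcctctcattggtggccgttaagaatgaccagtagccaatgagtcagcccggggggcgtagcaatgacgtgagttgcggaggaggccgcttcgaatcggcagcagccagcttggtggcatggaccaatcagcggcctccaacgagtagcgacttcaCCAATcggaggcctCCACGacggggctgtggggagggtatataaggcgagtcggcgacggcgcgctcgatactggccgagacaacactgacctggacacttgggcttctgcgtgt
Hsp90b1: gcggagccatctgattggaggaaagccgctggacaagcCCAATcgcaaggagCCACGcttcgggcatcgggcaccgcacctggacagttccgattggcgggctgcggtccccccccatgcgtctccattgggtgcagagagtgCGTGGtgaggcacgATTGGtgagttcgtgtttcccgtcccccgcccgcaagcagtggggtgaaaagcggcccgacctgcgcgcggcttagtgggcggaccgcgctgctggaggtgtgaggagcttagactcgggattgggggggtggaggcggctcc
Pdia6: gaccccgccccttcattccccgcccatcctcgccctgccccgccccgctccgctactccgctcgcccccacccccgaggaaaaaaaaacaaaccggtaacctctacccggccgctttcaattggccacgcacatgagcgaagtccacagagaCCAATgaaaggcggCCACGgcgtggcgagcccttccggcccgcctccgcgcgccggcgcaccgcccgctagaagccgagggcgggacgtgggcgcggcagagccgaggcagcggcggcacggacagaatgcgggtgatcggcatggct
Herpud1: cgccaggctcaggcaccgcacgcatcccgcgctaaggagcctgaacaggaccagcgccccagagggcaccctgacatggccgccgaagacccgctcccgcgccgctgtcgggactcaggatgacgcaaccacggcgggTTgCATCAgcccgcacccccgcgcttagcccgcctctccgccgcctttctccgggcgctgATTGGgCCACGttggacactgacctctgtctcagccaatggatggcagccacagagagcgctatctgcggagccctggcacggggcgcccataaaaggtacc

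Set against leukocytes, Krt8-positive cells of the N1ICD-EGFP plate had lower levels of 14 of 33 ER genes, with 18 within 1.5 times, and control had genes in both directions. In both plates the chaperones Dnajb9 and Sdf2l1, the degradation gene Edem1, the sensors Eif2ak3 and Ern1 and the phosphatase subunit Ppp1r15a were lower in Krt8-positive cells, and the isomerase P4hb was higher. A gene was counted as higher or lower at a ratio of 1.5 or more, among genes at 5 CPM or more in either group; ratios are log2 ratios of CPM plus 1. In the N1ICD-EGFP plate 1 of 33 ER genes was higher and 14 were lower in Krt8-positive cells, where 43.3% of all genes were higher and 28.6% lower. The median log2 ratio was -0.44, against 0.30 over all genes. In the control plate 10 were higher and 8 lower, where 46.4% of all genes were higher and 29.2% lower, and the median was 0.08 against 0.39. Of the 33 genes 6 were lower in both plates, 1 was higher in both and 2 were opposite, while 16.1% of all genes were lower in both and 29.8% higher in both. The count lower in both lies near its share over all genes, so it is no result about the ER genes. How many of all genes were opposite was not counted. The leukocytes of the plates differ in subtype, and those of the control plate number 19, so the plates are given side by side. Of these 7 genes, Ppp1r15a was the one past 1.5 times in every processing setting of both plates, and in control the ratios of Sdf2l1, Dnajb9 and Edem1 turned round in one or the other range of well columns.

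Among the chaperones, Sdf2l1, an ER protein that works with Hspa5, had 0, 0 and 1097 CPM (lowest, median and highest cell) in N1ICD-EGFP Krt8-positive cells and 0, 0 and 583 CPM in leukocytes of that plate. In control it had 0, 0 and 649 CPM in Krt8-positive cells and 0, 0 and 576 CPM in leukocytes. The ranges of single cells overlapped in both plates, and most cells of each group had few or no reads. The log2 ratio was -1.64 in N1ICD-EGFP and -1.49 in control. Dnajb9, an Hspa5 partner that is a target of Xbp1, had summed levels of 37.6 CPM in Krt8-positive cells and 96.1 CPM in leukocytes of the N1ICD-EGFP plate, and 129 and 201 CPM in control (log2 ratios -1.33 and -0.64). Hspa5 itself differed little, at -0.25 and -0.29.

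Edem1, a lectin that passes misfolded glycoproteins to degradation, showed one of the largest differences. Its cells ranged over 0, 0 and 802 CPM (lowest, median, highest) in N1ICD-EGFP Krt8-positive cells and 0, 0 and 1161 CPM in leukocytes. In control they ranged over 0, 0 and 1691 CPM in Krt8-positive cells and 0, 4.91 and 1626 CPM in leukocytes, of whose reads 51.8% came from 1 cell. Log2 ratios were -2.59 in N1ICD-EGFP and -1.52 in control. Ppp1r15a, the phosphatase subunit that reverses the translation block set by Eif2ak3, was at 165 CPM in Krt8-positive cells and 334 CPM in leukocytes in N1ICD-EGFP, and at 118 and 526 CPM in control (-1.02 and -2.15). The sensors Eif2ak3 (-0.93 and -1.97) and Ern1 (-0.90 and -2.33) were also lower in Krt8-positive cells of both plates. Of the Ern1 reads in control leukocytes, 89.3% came from 1 cell, and without the highest cell of each group the N1ICD-EGFP ratio turned round, to 1.12.

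P4hb, the disulfide isomerase that is also a subunit of prolyl 4-hydroxylase, was the gene higher in Krt8-positive cells of both plates. It had 0, 549.9 and 4845 CPM in N1ICD-EGFP Krt8-positive cells and 0, 51.2 and 1849 CPM in leukocytes, and 0, 509 and 3092 CPM in control Krt8-positive cells and 0, 10.8 and 1240.3 CPM in leukocytes (lowest, median and highest cell). Cells overlapped in range, with log2 ratios of 0.59 and 1.33. Xbp1, the factor that raises chaperone and degradation genes after splicing by Ern1, was higher past 1.5 times in control only (795 against 268 CPM, 1.57), and had 470.3 against 394 CPM in N1ICD-EGFP (0.26). The difference between the plates was not tested.

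The remaining genes higher in control Krt8-positive cells were the lectin chaperone Calr (1.22), the isomerase Pdia6 (0.83), the signal peptidase subunit Spcs1 (1.02), the translocon-associated Ssr2 (1.94), the sensor Atf6 (0.66), the secreted stress proteins Manf (1.002) and Creld2 (3.35), and the chaperone Hyou1 (2.35). Of the few reads in control leukocytes, 1 cell gave 100% for Creld2 and 90.8% for Hyou1. Manf and Creld2 were lower in N1ICD-EGFP Krt8-positive cells than in leukocytes (-0.92 and -0.77). Lower in control alone were the peptidase subunit Sec11c (-0.59) and Atf4 (-0.75), the factor translated when Eif2ak3 is active. In N1ICD-EGFP the further lower genes were Dnajb11 (-0.98), Herpud1 (-0.87), Sec61b (-1.01), Ssr1 (-0.85), Spcs2 (-0.87) and Ddit3 (-1.52).

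Within the leukocytes, macrophages had a higher summed level of ER genes than B or T cells in both plates, at 10298 CPM in N1ICD-EGFP (15 cells) and 10464 CPM in control (8 cells). B cells had 8496 CPM (21 cells) and 6606 CPM (3 cells), and T cells 6642 CPM (8 cells) and 8344 CPM (6 cells). Sdf2l1 reached 115 CPM in macrophages of the N1ICD-EGFP plate and 253 CPM in those of control. Without macrophages the control Sdf2l1 ratio turned round, to 5.27. The control leukocytes then left had no Sdf2l1 read, so the pseudocount sets the size of this ratio.

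Among Krt8-positive cells of the control plate the hormone-sensing ones stood apart. These 68 cells had 13780 CPM of ER genes (13731 to 13829), and the other 230 had 7979 CPM. Per cell the sum had a lowest, median and highest value of 5011, 12197 and 35657 CPM in hormone-sensing cells and of 2387, 7292 and 21417 CPM in the others, which overlap. Of 33 ER genes 23 were higher and 3 lower in hormone-sensing cells, where 25.7% of all genes were higher and 28.6% lower, and the median was 0.80, against -0.0034 over all genes. In 18 of the 26 genes the level stayed past 1.5 times in every processing setting, and how many of all genes did so was not counted. The 9 hormone-sensing cells of the N1ICD-EGFP plate had 10581 CPM and the other 196 had 7548 CPM. In control, hormone-sensing cells also had more reads (median 323538 against 217034), more genes after thinning (4460 against 2978) and fewer casein reads (median 46.4 against 23738 CPM). The part of those differences in the ER gene levels was not tested.

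The chaperones Sdf2l1 and Hyou1 had the highest ratios. Sdf2l1 (ENSMUSG00000022769, chr16:17130138-17132383, minus strand) had 0, 51.4 and 649 CPM (lowest, median and highest cell) in hormone-sensing cells and 0, 0 and 252 CPM in the others, and its summed level was 97.1 against 12.6 CPM (7.71 times, log2 2.85). Both groups contained cells without a read. Hyou1, which exchanges nucleotides on Hspa5, had 0, 72.4 and 789 CPM in hormone-sensing cells and 0, 0 and 666 CPM in the others, with summed levels of 119.7 and 26.7 CPM (log2 2.12). Pdia6 had 0, 409 and 2542 CPM in hormone-sensing cells and 0, 5.75 and 2767 CPM in the others, and 574 against 177 CPM summed (log2 1.70). The median cell was higher among hormone-sensing cells for all 3 genes, and single cells overlapped.

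Hspa5 (ENSMUSG00000026864, chr2:34771970-34777547, plus strand) had 0, 1459 and 8394 CPM in hormone-sensing cells and 0, 617 and 8018 CPM in the others, and summed levels of 1882 and 1083 CPM (log2 0.80). In the N1ICD-EGFP plate Hspa5 had 1182 CPM in the 9 hormone-sensing and 1039.8 CPM in the other cells. Hsp90b1, an ER chaperone for receptors and other clients, stood at 1242 against 596 CPM (1.06). Co-chaperones with a J domain were uneven, with Dnajb11 at 1.56, Dnajc3 at 1.04 and Dnajb9 at 0.40, the last short of 1.5 times. Both lectin chaperones were higher, Calr with a log2 ratio of 1.01 and its membrane-bound relative Canx with 0.69, as were the isomerases Pdia4 (1.40), Pdia3 (0.85) and P4hb (0.62), and the secreted Creld2 (1.39) and Manf (1.37).

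At the entry to the ER, Sec61b was higher in hormone-sensing cells (1.18), as were Sec61a1 (0.60), which forms the channel, and the peptidase subunits Spcs2 (1.41), Spcs1 (1.02) and Sec11c (0.79). The 4 subunits of the translocon-associated protein complex lay between 0.05 (Ssr4) and 0.56 (Ssr3), short of 1.5 times. Edem1 was higher (1.23) and Herpud1, which assembles the degradation complex, was not (0.05). Among the sensors, Ern1 (13.5 against 3.37 CPM, 1.73) and Eif2ak3 (0.66) were past 1.5 times and Atf6 was not (0.40). Eif2ak3 turned round in well columns 13 to 24.

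Lower in hormone-sensing cells were Ppp1r15a, Atf4 and Ddit3. Not all genes of the Atf4 branch were lower. The level of its sensor Eif2ak3 was higher (0.66), but its median cell had no read in either group. That ratio turned round in part of the well columns. Of 14 further Atf4 targets 7 were higher and 3 lower, where 25.7% of all genes were higher and 28.6% lower. Activity of the branch was not tested. Ppp1r15a had 0, 0 and 316 CPM in hormone-sensing cells and 0, 0 and 2681 CPM in the others, with summed levels of 41.1 and 150.3 CPM (log2 -1.85). Atf4 was at 222 against 355 CPM (-0.68), and Ddit3 (CHOP), a factor tied to cell death under lasting stress, at 11.1 against 20.5 CPM (-0.83). Xbp1 had 0, 1025 and 5662 CPM in hormone-sensing cells and 0, 371 and 6228 CPM in the others, and was higher (1093 against 670.2 CPM, 0.71). In N1ICD-EGFP Xbp1 had 1191 CPM in hormone-sensing and 432 CPM in other cells. Of the promoters with ERSE shown above, all 7 belonged to genes that were higher (0.69 to 1.70, median 1.04). Among 20 measured genes without it, which include the ERSE-II genes, 12 were higher and 3 lower (median 0.68). Of all genes 25.7% were higher. With all Krt8-positive cells, the medians with and without ERSE were -0.42 and -0.40 for N1ICD-EGFP over control. Over leukocytes they were -0.31 and -0.87 in N1ICD-EGFP and 0.37 and -0.14 in control. For the casein tertiles described below they were -0.11 and 0.01 in N1ICD-EGFP and -0.66 and -0.38 in control. A link between these letters and the levels was not tested.

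**Figure D2:**
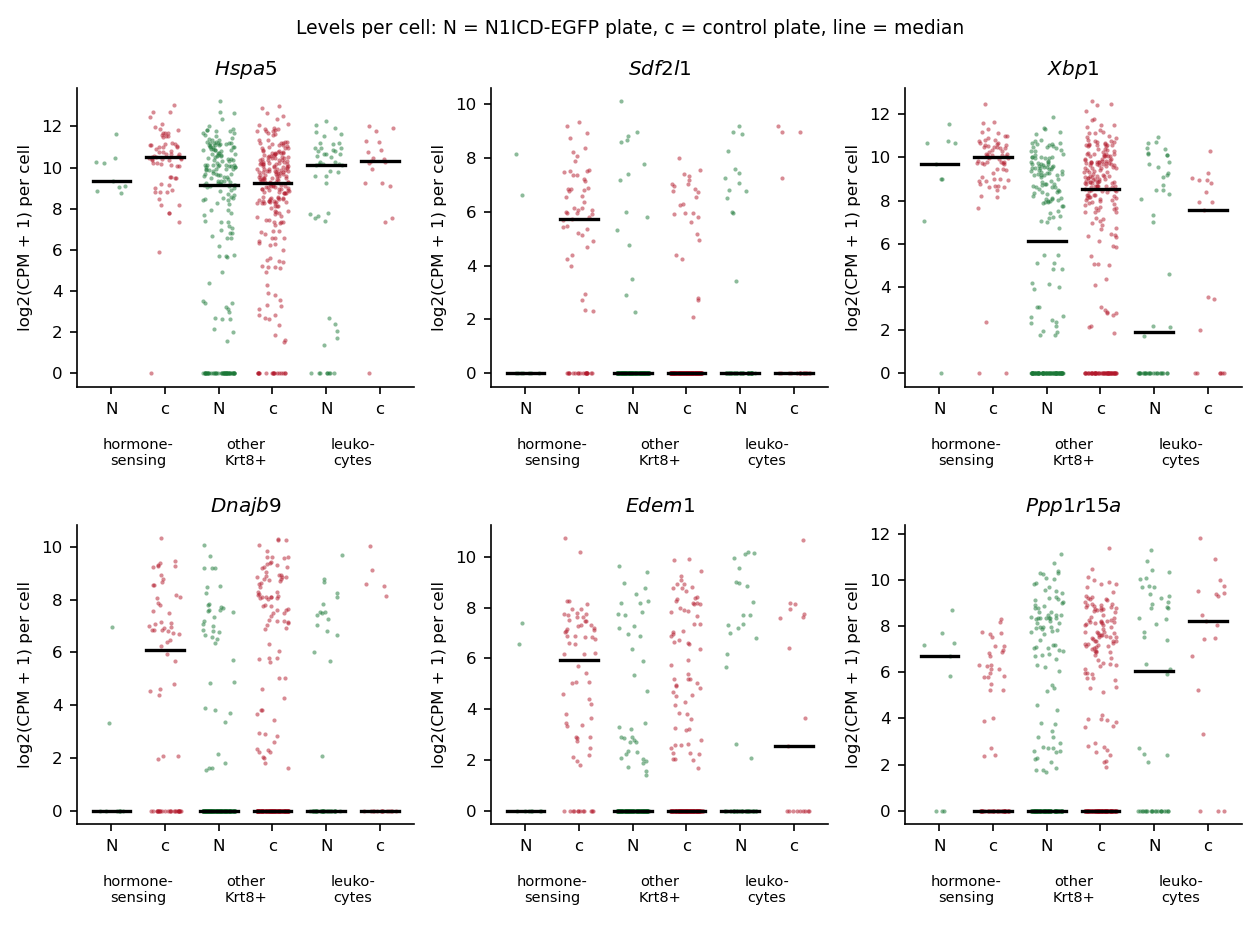
Level of 6 ER genes in single cells, as log2(CPM + 1), for hormone-sensing Krt8-positive cells, other Krt8-positive cells and leukocytes, with N1ICD-EGFP (N) and control (c) side by side. Each point is a cell and the line is the median of the group; cells at 0 had no read. The control median of Hspa5 is 1459 CPM in hormone-sensing and 617 CPM in other Krt8-positive cells.

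Between genotypes, N1ICD-EGFP Krt8-positive cells had lower levels of 13 of 33 ER genes than control cells and higher levels of 0, where 18.7% of all genes were lower and 19.8% higher. The median log2 ratio was -0.41, against 0.05 over all genes. Leaving out the hormone-sensing cells (9 of 205 in N1ICD-EGFP, 68 of 298 in control) brought the median to -0.04, against 0.09 over all genes, with 6 lower and 3 higher of 32, where 16.8% of all genes were lower and 21.1% higher. In 4 genes, Dnajb9, Dnajc3, Edem1 and Xbp1, the level was lower by 1.5 times or more in every processing setting tried. How many of all genes were so was not counted.

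Dnajb9 (ENSMUSG00000014905, chr12:44205559-44210326, minus strand) showed the largest difference, with 0, 0 and 1071 CPM (lowest, median and highest cell) in N1ICD-EGFP and 0, 0 and 1278 CPM in control Krt8-positive cells. Its summed level was 37.6 CPM (36.2 to 39.1) in N1ICD-EGFP and 129 CPM (126 to 131) in control, a ratio of -1.75 with and -1.59 without hormone-sensing cells. In both genotypes the median cell had no read, and the ranges overlapped. Dnajc3, a co-chaperone that also restrains Eif2ak3, had 158 CPM in N1ICD-EGFP and 305 CPM in control (-0.94, and -0.63 without hormone-sensing cells).

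Xbp1 (ENSMUSG00000020484, chr11:5520659-5525893, plus strand) had 0, 133 and 3754 CPM in N1ICD-EGFP and 0, 488 and 6228 CPM in control cells, and 470.3 CPM (465 to 475) against 795 CPM (789 to 802) summed. Its ratio was -0.76, and -0.63 without hormone-sensing cells. Edem1 (ENSMUSG00000030104, chr6:108828641-108859356, plus strand) had 28 CPM in N1ICD-EGFP and 70.8 CPM in control (-1.31 and -0.82). Counts of this kind do not tell spliced from unspliced Xbp1.

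The other lower genes were Hyou1 (-0.73), Sdf2l1 (-0.76), Calr (-0.61), Pdia4 (-0.80), Manf (-0.68), Herpud1 (-0.64), Sec61b (-0.98), Atf6 (-0.63) and Ern1 (-0.97). Atf6 turned round in well columns 13 to 24. Without hormone-sensing cells Hyou1 (0.27) and Sdf2l1 (0.61) turned to the other direction, and Sdf2l1, Dnajb11 (0.81) and Eif2ak3 (0.60) were then higher in N1ICD-EGFP. For Sdf2l1, Dnajb11 and Eif2ak3 the median cell had no read in either genotype. Their highest cells were at 1097, 2647 and 2509 CPM in N1ICD-EGFP and at 252, 798 and 664 CPM in control. How far these calls rest on the highest cell was not tested. Without hormone-sensing cells the most abundant chaperones and isomerases came close to 0: Hspa5 had -0.06, Hsp90b1 -0.07 and Pdia3 -0.10, against -0.33, -0.42 and -0.35 with them. Casein levels and genes per cell still differed without hormone-sensing cells (median casein 2577 against 23738 CPM, 2111 against 2978 genes after thinning), and their part was not tested.

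**Figure D3:**
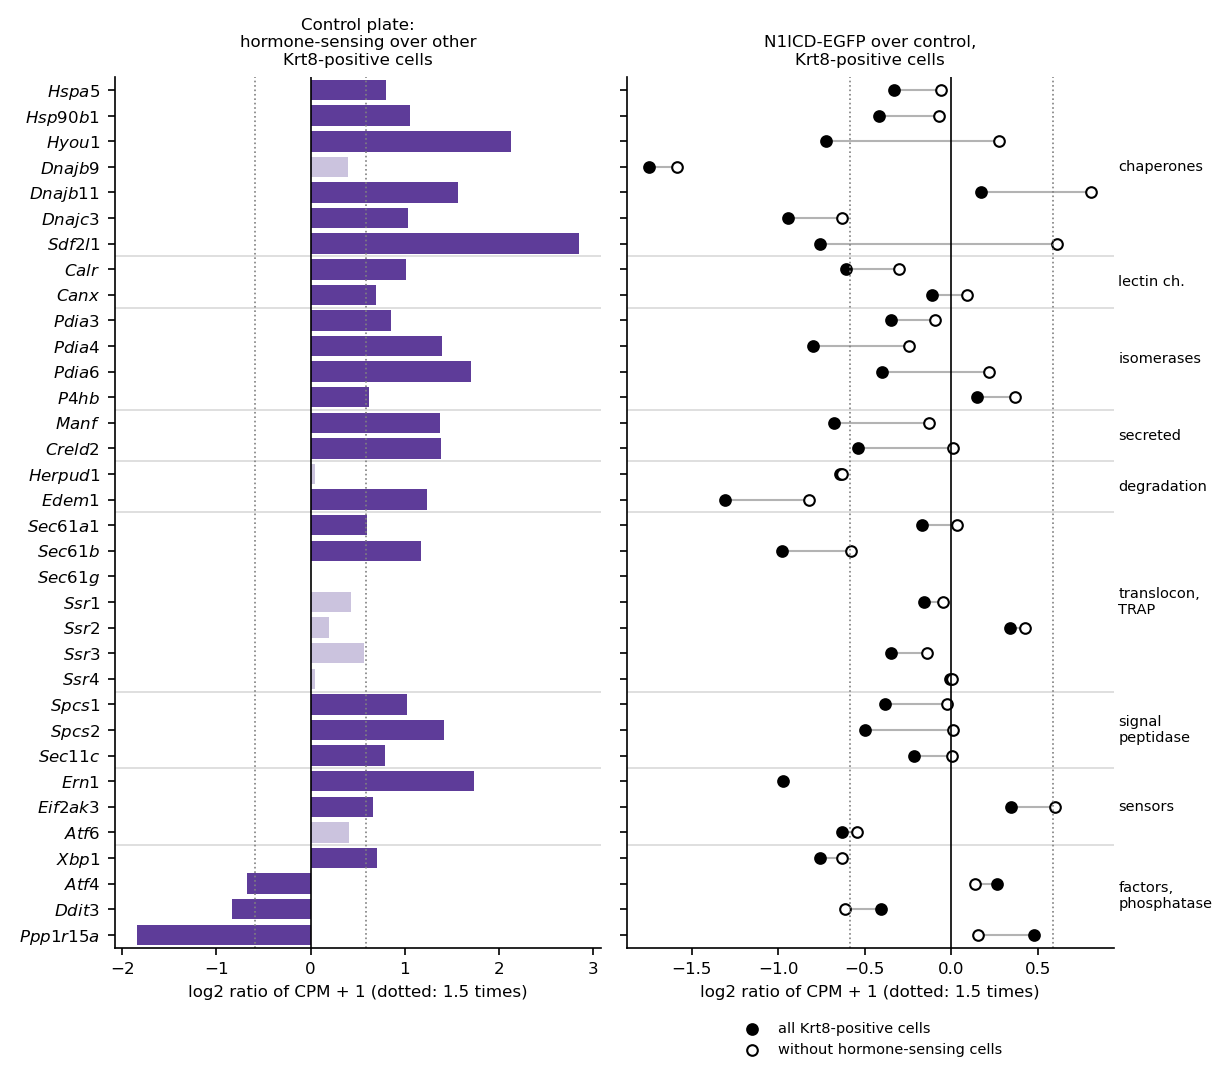
Left, log2 ratio of each ER gene in hormone-sensing over other Krt8-positive cells of the control plate. Right, log2 ratio of N1ICD-EGFP over control Krt8-positive cells, with all cells (filled) and without hormone-sensing cells (open); dotted lines mark 1.5 times. Sdf2l1 has 2.85 on the left, and -0.76 with and 0.61 without hormone-sensing cells on the right.

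Casein reads varied between Krt8-positive cells over several orders of magnitude. The ER genes were set against them within each plate, with casein reads left out of the total. Krt8-positive cells were ranked into tertiles. The median casein level in the lowest, middle and highest tertile was 2.65, 2199 and 13511 CPM in N1ICD-EGFP and 141.7, 17938 and 41633 CPM in control. Casein reads separate the tertiles sharply at the bottom border of N1ICD-EGFP, where 3 cells lay within 1.5 times of it, and poorly at the top border of control, where 95 did. In the order of the tertiles, the summed ER genes were at 7472, 8031 and 7751 CPM in N1ICD-EGFP and at 12258, 7307 and 9464 CPM in control. The lowest control tertile held 63 of the 68 hormone-sensing cells, and the lowest of N1ICD-EGFP 8 of 9.

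In the N1ICD-EGFP plate 5 ER genes were higher and 5 lower of 32 in the highest casein tertile than in the lowest, where 23.1% of all genes were higher and 31.9% lower (median 0.04, against -0.13 over all genes). Both counts lie below those shares. Herpud1 stood at 283 CPM in the highest and 122 CPM in the lowest tertile (1.21), and Ddit3 at 23.8 and 4.82 CPM (2.09). Sdf2l1 was at 4.81 against 34.4 CPM (-2.61), Creld2 at 19.9 against 91.4 CPM (-2.14) and Edem1 at 12 against 39.1 CPM (-1.62). These 5 stayed past 1.5 times in every setting tried, and how many of all genes did so was not counted. Most were read in few cells. After thinning, Sdf2l1 was read in 4.41% of cells of the highest and 8.70% of the lowest tertile. In the same order, Creld2 was read in 5.88% and 24.6%, Edem1 in 7.35% and 17.4% and Ddit3 in 17.6% and 7.25%. Herpud1 was read in 51.5% and 30.4%. Dnajb9 (0.85), Manf (0.86) and Pdia4 (0.59) were also higher, and Canx (-0.75) and Spcs1 (-0.61) lower. Manf and Dnajb9 turned round in one range of well columns each.

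In the control plate 2 ER genes were higher and 14 lower of 33 in the highest casein tertile, where 24.4% of all genes were higher and 27.1% lower (median -0.51, against -0.03 over all genes). With the hormone-sensing cells left out and the other 230 cells ranked anew, 11 were higher and 3 lower, where 21% of all genes were higher and 25.2% lower, and the median was 0.27, against -0.02. The direction of the control plate thus depended on whether those cells were counted. Higher with and without them were Atf4 (0.79 and 0.63) and Ppp1r15a (1.39 and 0.60). Lower with and without them were Dnajb11, Sec11c and Ern1. With all cells these were at 54.7, 78.9 and 1.11 CPM in the highest tertile and 181, 141 and 12.2 CPM in the lowest.

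Among control cells without hormone-sensing markers, Hspa5 was at 1488 CPM in the highest and 781 CPM in the lowest casein tertile (0.93), with cells at 0, 759.5 and 8018 CPM in the highest and 0, 455 and 7710.4 CPM in the lowest (lowest, median and highest cell). Xbp1 was at 957 against 449.7 CPM (1.09), with cells at 0, 464 and 6228 CPM in the highest and 0, 221 and 2682 CPM in the lowest. Single cells overlapped for both genes. Also higher were Sdf2l1 (2.14), Hyou1 (1.55), Pdia6 (1.31), Ssr3 (0.82), Manf (0.81), Herpud1 (0.73) and Calr (0.69), and lower were Dnajb11 (-0.64), Sec11c (-0.70) and Ern1 (-1.84). The highest and lowest tertile held 76 and 77 cells with casein medians of 44574 and 9871 CPM, so the lowest was not casein-free. Herpud1 and Manf were higher here and in the highest tertile of N1ICD-EGFP with all cells. The lowest tertile of that plate had a casein median of 2.65 CPM, so the 2 contrasts cover unlike cells and casein ranges. Sdf2l1 was opposite, at -2.61 in N1ICD-EGFP with all cells, where few cells had a read of it. The difference between the plates was not tested.

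Over single cells the relation was weak. Across the 230 control cells without hormone-sensing markers the median Spearman correlation of an ER gene with casein reads was 0.06 over 32 genes, and across 196 N1ICD-EGFP cells it was 0.06 over 28. The cells of a plate share their library preparation, and these values were not thinned, so cells differ in depth. Correlations of this size in sparse counts are no finding.

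**Figure D4:**
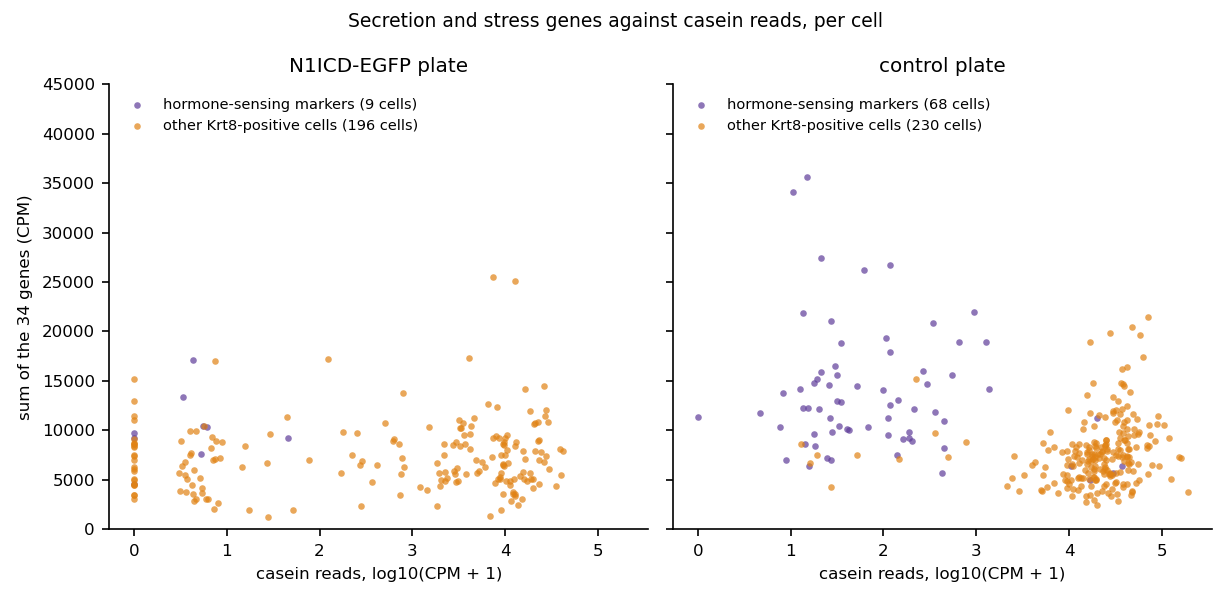
Summed ER genes, in CPM, against casein reads as log10(CPM + 1) in each Krt8-positive cell, N1ICD-EGFP left and control right, with hormone-sensing cells coloured apart. In control the hormone-sensing cells sit at low casein (median 46.4 CPM) and high ER gene level (median 12197 CPM), away from the others (medians 23738 and 7292 CPM).

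**Figure D5:**
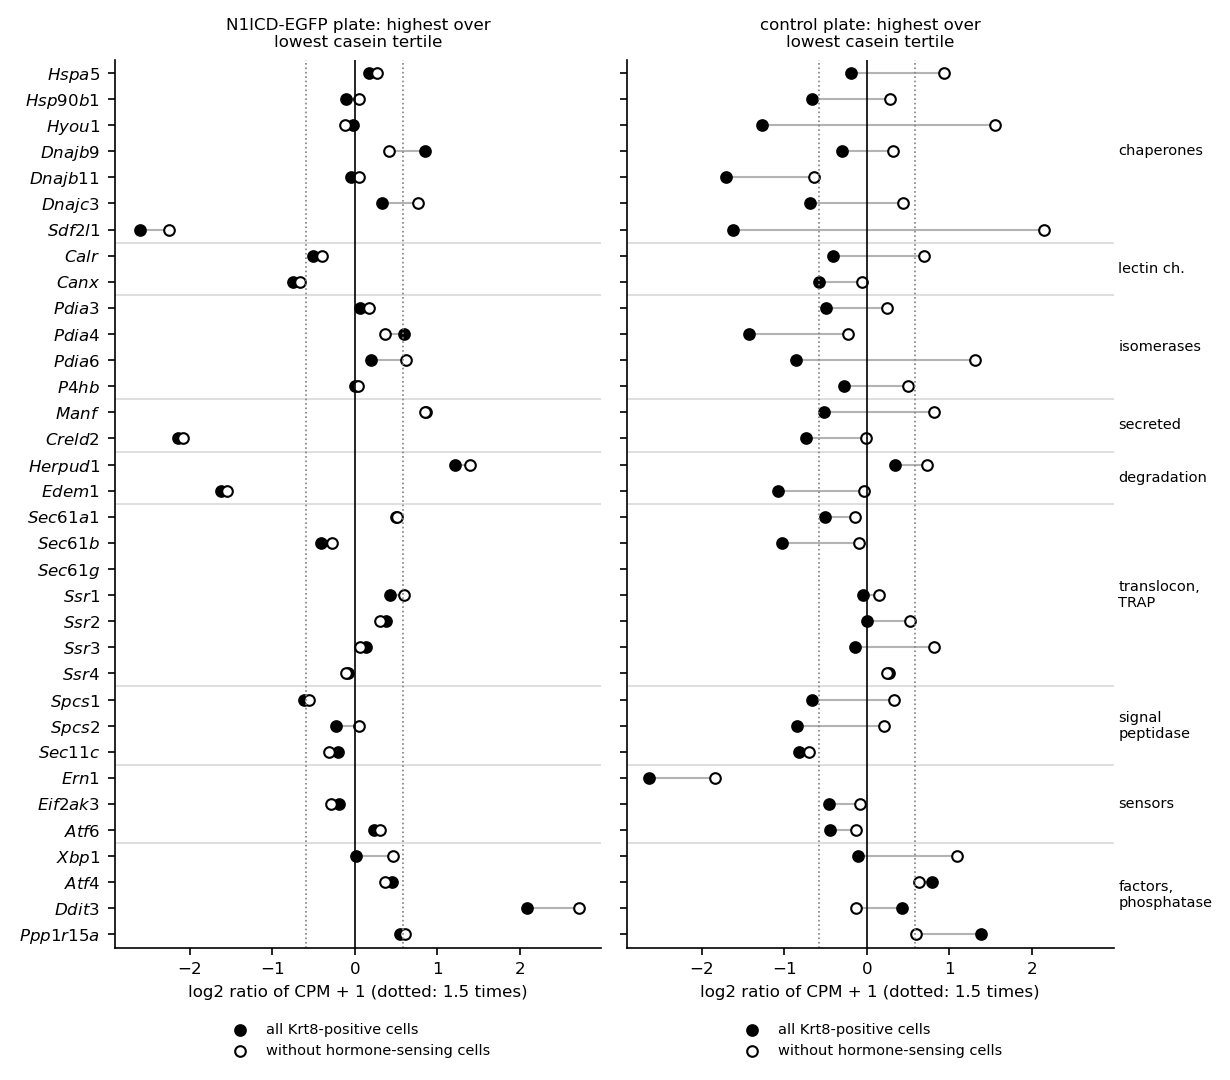
Log2 ratio of each ER gene between the highest and the lowest casein tertile, N1ICD-EGFP left and control right, with all Krt8-positive cells and without hormone-sensing cells; dotted lines mark 1.5 times. In control Hyou1 moves to 1.55 without hormone-sensing cells, against -1.27 with all cells.

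From cell to cell the ER genes varied together loosely. Over Krt8-positive cells thinned to 50000 reads the median Spearman correlation of a pair was 0.12 in N1ICD-EGFP (300 pairs, -0.08 to 0.31) and 0.14 in control (465 pairs, -0.13 to 0.44). The closest pair was Ssr1 with Xbp1 in N1ICD-EGFP (0.31) and Sdf2l1 with Manf in control (0.44). The mean level of the ER genes followed the number of genes detected in a cell, with a correlation of 0.76 in N1ICD-EGFP and 0.70 in control. The 10 other genes most like that mean in control cells, by Spearman correlation over 298 cells among 6143 genes (median 0.14), were Gipc2, Cdo1, Tspan1, Enho, Fxyd2, Cldn10, Cxcl15, Cyp3a57, Agtr1a and Mtmr7, at 0.64 to 0.59. In N1ICD-EGFP cells their correlations were 0.13 to 0.30, against a median of 0.19. All 10 were read mainly in hormone-sensing cells of the control plate: Gipc2 had 527 CPM in hormone-sensing and 0.135 CPM in other cells, and Cdo1 had 1469.7 CPM in hormone-sensing and 1.64 CPM in other cells.

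Further genes of the secretory route were counted from lists drawn up by function. In hormone-sensing over other control cells, 5 of 12 signal recognition and translocation genes were higher and 0 lower. Of 10 oligosaccharyltransferase genes 3 were higher and 0 lower, and of 15 for glycoprotein folding and oxidation 5 and 2. Of 11 for ER-associated degradation 7 were higher and 1 lower, of 20 for ER-Golgi transport 5 and 0, and of 14 Atf4 targets 7 and 3. Over all genes 25.7% were higher and 28.6% lower, and the higher shares of the oligosaccharyltransferase, folding and transport lists lie near that. The oligosaccharyltransferase subunit Ostc had 243 CPM in hormone-sensing and 77.2 CPM in other cells, and Derl2, a degradation channel component, had 148.3 CPM in hormone-sensing and 59.7 CPM in other cells. Prdx4, an ER peroxiredoxin, ran against its list with 35.3 CPM in hormone-sensing and 268 CPM in other cells, as did the transcription factor Cebpb among the Atf4 targets with 23.9 CPM in hormone-sensing and 271 CPM in other cells. Between N1ICD-EGFP and control Krt8-positive cells the same lists gave 0 higher and 1 lower of 12, 0 and 2 of 10, 0 and 0 of 14, 0 and 3 of 11, 0 and 6 of 20, and 2 and 4 of 13, where 19.8% of all genes were higher and 18.7% lower. Asns, which makes asparagine, had 26.4 against 72.7 CPM, and Nupr1, a stress-linked chromatin protein, had 399 against 176 CPM. The COPII and p24 cargo genes Sec24a (15.7 against 33.8 CPM) and Tmed2 (17 against 45.1 CPM) were among the lower transport genes. In Krt8-positive cells over leukocytes the lists gave, in the same order, 5 higher and 2 lower, 2 and 1, 2 and 8, 4 and 2, 2 and 3, and 6 and 4 in N1ICD-EGFP, and 5 and 1, 2 and 0, 9 and 3, 3 and 4, 5 and 2, and 4 and 6 in control, where 43.3% of all genes were higher and 28.6% lower in N1ICD-EGFP and 46.4% and 29.2% in control. In the highest over the lowest casein tertile they gave 0 and 3, 0 and 3, 1 and 1, 1 and 1, 3 and 2, and 1 and 3 in N1ICD-EGFP, and 0 and 4, 0 and 2, 3 and 4, 3 and 4, 1 and 3, and 2 and 5 in control, where 23.1% of all genes were higher and 31.9% lower in N1ICD-EGFP and 24.4% and 27.1% in control. List counts near these shares are no result about a list.

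Some reads cannot be given to 1 gene, since the use of strand is not given in the sources used here. Spcs1 shares 252 exon bases with Glt8d1 on the opposite strand, Hsp90b1 415 with 1810014B01Rik, Ddit3 68 with Mars and Pdia6 50 with Atp6v1c2.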

How the data were processed

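Sorted single cells of 1 plate per genotype were analysed from the read counts per gene and cell that the authors deposited. The submitters' processing notes name STAR and mm10; their versions, the counting tool, annotation and strandedness were not given in the sources used here. Smart-Seq2 counts have no molecular identifiers, so PCR copies are counted. Of 24490 rows, 492 with a repeated name were summed into the row of that name, which left 23997 names besides the reporter. No 2 cells had identical counts. No doublet caller was run, since cells were sorted singly; wells with Krt8 and at least 2 leukocyte genes (3 in N1ICD-EGFP, 5 in control) were left out of the comparisons as mixed, and mitochondrial reads were not filtered.

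Reads of the cells kept (at least 50000 reads and 1000 genes, median 348469 reads in N1ICD-EGFP and 241888 in control) were summed by class and scaled to CPM. Ratios are log2 of CPM plus 1, for genes at 5 CPM or more in either group. Since the labels name no animals, no test was made, and a gene counts as higher or lower at 1.5 times. Sums have exact Poisson and shares Clopper-Pearson 95% intervals. A class gene is on at 5 reads. Casein tertiles were formed within each plate, with casein reads left out of the total. Genes per cell and the correlations among genes used cells thinned to 50000 reads (seed 0), where so stated; correlations with casein reads used unthinned cells, and thinning was an alternative. Levels per kilobase use summed exon lengths of a GENCODE annotation of GRCm38, and promoters are from RefSeq. Python 3.11.15, numpy 2.4.6, pandas 2.3.3, scipy 1.17.1 and matplotlib 3.10.9 were used. The procedure was tried on simulated data with changes larger than 1.5 times, so that trial does not cover calls near 1.5 times.

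All 34 genes are named by role. Of each further list up to 2 genes with the highest and 2 with the lowest ratio could be named, among those at 20 CPM or more with a read in 20% or more of the higher group's cells, and of the genes most like the ER genes the first 10. The genes, lists and rules were chosen with earlier results of these data known. The comparison of hormone-sensing with other Krt8-positive cells, and the separate counts without hormone-sensing cells, were added after the data had been seen. Alternatives covered cell filters, possible doublets, class thresholds, thinning, pseudocounts, scaling, low-value filters, well columns, leukocyte subtypes, hormone-sensing cells, casein groups and casein in the total.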

Additional observations from a re-analysis of the deposited data

Results flagged for a closer look

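In 3 ER genes the log2 ratio was past 1.5 times in both plates, in opposite directions, under the same contrast. Genes of opposite sign short of 1.5 times in either plate are not counted. The share of all genes opposite in this way was not counted, so whether 3 is an unusual number cannot be told. Manf, a secreted stress protein, had -0.92 in Krt8-positive cells over leukocytes of the N1ICD-EGFP plate and 1.002 in control, and Creld2 had -0.77 in N1ICD-EGFP and 3.35 in control. All Creld2 reads of the control leukocytes came from 1 of 19 cells. Pdia4 had 0.59 in the highest over the lowest casein tertile of N1ICD-EGFP and -1.42 in control, and -0.22 in control without hormone-sensing cells. The difference between the plates was not tested for any of the 3 genes.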

How the results depend on the processing

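No paired analysis was possible because no test was made, and equal well names in the plates mark no shared animal. The precision is limited by 1 plate per genotype, by 19 control leukocytes and by low levels such as those of Ern1 and Sec61g; intervals cover counting error only, and PCR copies are counted as reads. The main settings gave a median log2 ratio of -0.44 in N1ICD-EGFP and 0.08 in control for Krt8-positive cells over leukocytes, of 0.04 in N1ICD-EGFP and -0.51 in control for the highest over the lowest casein tertile, and of -0.41 for N1ICD-EGFP over control, with 15, 18, 10, 16 and 13 genes past 1.5 times. Of these 5, 9, 5, 4 and 4 stayed past 1.5 times in every setting, and so did 18 of 26 in hormone-sensing over other control cells. How many of all genes did so was not counted, so these counts cannot be set against a share over all genes. The cause of the changes below was not tested.

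For Krt8-positive cells over leukocytes, the N1ICD-EGFP median was -0.63 at 100000 reads and 2000 genes and -0.60 with median-of-ratios scaling, which moves the median of all genes to 0.13 in N1ICD-EGFP and 0.27 in control. The control median was -0.12 without possible doublets, -0.045 with that scaling, -0.26 without hormone-sensing cells and -0.078 without B and plasma cells. In control, Sdf2l1 turned to 0.28 with class genes on at 1 read, 0.71 in well columns 13 to 24 and 5.27 without macrophages. The size of the last is set by the pseudocount, since the leukocytes left had no Sdf2l1 read. Also in control, Atf6 turned to -0.21 with class genes on at 20 reads and Dnajb9 to 1.05 in columns 1 to 12. Edem1 turned to 0.18 and Sec11c to 0.079 in columns 13 to 24. In N1ICD-EGFP, Ddit3 turned to 0.28 in columns 1 to 12, Herpud1 to 0.41 in columns 13 to 24 and Ern1 to 1.12 without the highest cell of each gene.

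For N1ICD-EGFP over control, the median was -0.25 without possible doublets, with 9 genes past 1.5 times. In columns 13 to 24 of this comparison 7 genes were past 1.5 times and Atf6 turned to 0.040. Without hormone-sensing cells Hyou1 turned to 0.27 and Sdf2l1 to 0.61. For casein in N1ICD-EGFP, columns 1 to 12 gave a median of -0.19 and 19 genes, with Manf at -0.10, and columns 13 to 24 put Dnajb9 at -0.012. For casein in control, 10 genes were past 1.5 times without possible doublets, with a median of -0.20. The control casein median was -0.68 in columns 1 to 12, -0.69 with quartiles and 0.27 without hormone-sensing cells. Without those cells Hsp90b1 turned to 0.27, Hyou1 to 1.55, Dnajc3 to 0.44, Sdf2l1 to 2.14, Pdia6 to 1.31, Spcs1 to 0.33 and Spcs2 to 0.20. The median correlation of ER genes with casein reads in control was -0.19 over all 298 cells, which join hormone-sensing cells of low casein to the others, 0.059 without hormone-sensing cells and -0.034 given the number of genes in a cell. In hormone-sensing over other cells Eif2ak3 turned to -0.58 in columns 13 to 24.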

Other observations

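Leukocyte subtypes differed in which ER genes they carried, given here for the N1ICD-EGFP plate, which has the most leukocytes (21 B cells, 8 T cells and 15 macrophages). Dnajb11, a co-chaperone of Hspa5, was at 472 CPM in B cells, 81.7 CPM in T cells and 116 CPM in macrophages. Macrophages had 1295 CPM of Pdia3, against 599.7 CPM in B cells and 232 CPM in T cells, and 1027 CPM of Hsp90b1, against 582 and 497 CPM in B and T cells. Atf4 was at 862 CPM in T cells, 434 CPM in B cells and 339 CPM in macrophages. These genes were picked after their values were seen, and no test was made.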
